A study of Mus musculus with 5 samples.

Results

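Natural killer (NK) cells made up 566 of the 62028 blood mononuclear cell barcodes kept from 5 mouse libraries. A barcode was kept with at least 200 genes and a mitochondrial share of UMIs (unique molecular identifiers, 1 per captured RNA molecule) under 10%. It was called an NK cell when at least 3 of 7 genes had a UMI and 5 genes of other blood cells had none. The 7 genes were Ncr1, Klrb1c, Klre1, Klra4, Klra8, Prf1 and Gzma. The 5 excluding genes were Cd3e, Cd3d and Cd8b1 of T cells, Cd79a of B cells and Lyz2 of myeloid cells. These 12 genes chose the cells, so their levels are given below as a description, with no test.

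The libraries came from C57BL/6N mice in a model of HFpEF, the form of heart failure in which the ejection fraction is preserved. The 2 control libraries (chow 1 and chow 2) came from mice fed regular chow. For the 2 libraries HFD + L-NAME 1 and HFD + L-NAME 2, a high-fat diet was combined for 15 weeks with L-NAME, an inhibitor of the endothelial nitric oxide synthase eNOS. The single library HFD + L-NAME + NO2-OA, called the NO2-OA library here, had the same 15 weeks, with the nitro-fatty acid NO2-OA added in the last 4 weeks. The labels give neither the age and sex of the mice nor how many animals stood behind a library, so p-values below measure only the spread between these libraries. Blood was taken into EDTA, separated on Ficoll, treated with erythrocyte lysis buffer, frozen, thawed and loaded for 3-prime droplet sequencing.

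NK cells are innate lymphocytes that kill infected or transformed cells without rearranged antigen receptors. They release perforin, which opens the target's membrane, and granzymes, proteases that enter through it. In the mouse, the decision to kill is set by activating receptors such as NKp46 (Ncr1), NK1.1 (Klrb1c), Ly49D (Klra4) and Ly49H (Klra8) against inhibitory Ly49 and NKG2A receptors that read MHC class I. Circulating NK cells are driven by interleukin 15 and by the factors Eomes and T-bet (Tbx21), and they mature from CD27+ cells to CD11b+ cells (Itgam encodes CD11b).

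The promoters of the genes that chose the cells were searched for short motifs. RUNX factors are known regulators of NK receptor and granule genes, and their core motif was searched as TGTGGTT on both strands (AACCACA on the other) in the 250 bases before each start site, in RefSeq promoters of build GRCm38.p6. All 7 rule genes matched the promoter table, and 3 of them held the motif at any start site. Of all 32851 promoters of that length, from 27025 gene symbols, 4.40% held it. The first is counted by gene and the second by promoter, here and for the T-box letters below, so they are not on the same unit. Klre1 held the motif at the first of its start sites and not at the second. Over 24 NK genes searched, 19 were in the table and 6 held the motif. The T-box letters GGTGTGA, searched the same way, were in 1 of the 19 (Nkg7) and in 3.33% of all promoters. The promoters of 3 rule genes and of Klrk1, which encodes the activating receptor NKG2D, are printed because they hold the RUNX letters upstream of genes whose levels are described below, with the motif in capitals and the 3-prime end next to the start site. The Ncr1 stretch is chr7:4337465-4337714, plus strand, with the motif beginning at -176 from the start site. Those of Gzma (chr13:113100982-113101231, minus strand, motif at -51), Klre1 (chr6:129577963-129578212, plus strand, motif at -229) and Klrk1 (chr6:129623865-129624114, minus strand, motif at -129) are given on their own strand. A match in these letters is a description and not a measured binding site.
Ncr1: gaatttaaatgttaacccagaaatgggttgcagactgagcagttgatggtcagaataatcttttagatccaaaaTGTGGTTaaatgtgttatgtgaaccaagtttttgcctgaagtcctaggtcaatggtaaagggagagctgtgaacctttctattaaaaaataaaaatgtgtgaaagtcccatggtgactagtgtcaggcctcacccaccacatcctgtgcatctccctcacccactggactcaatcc
Gzma: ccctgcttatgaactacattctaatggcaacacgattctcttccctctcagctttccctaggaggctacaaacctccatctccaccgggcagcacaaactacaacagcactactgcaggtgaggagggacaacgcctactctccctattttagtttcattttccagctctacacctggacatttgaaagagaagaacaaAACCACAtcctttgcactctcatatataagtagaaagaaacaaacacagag
Klre1: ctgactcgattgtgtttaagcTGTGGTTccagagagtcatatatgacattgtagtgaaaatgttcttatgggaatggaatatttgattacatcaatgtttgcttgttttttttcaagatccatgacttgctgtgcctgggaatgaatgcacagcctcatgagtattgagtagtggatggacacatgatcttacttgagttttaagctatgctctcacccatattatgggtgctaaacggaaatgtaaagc
Klrk1: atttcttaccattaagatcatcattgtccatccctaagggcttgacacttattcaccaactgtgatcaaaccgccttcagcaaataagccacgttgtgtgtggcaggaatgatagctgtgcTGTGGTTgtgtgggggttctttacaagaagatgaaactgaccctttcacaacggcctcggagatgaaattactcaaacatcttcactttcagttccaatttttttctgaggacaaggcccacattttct

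The libraries held 71216133 to 122022000 UMIs in all and 7687 to 17255 kept barcodes. The NK cells were 147 in chow 1, 98 in chow 2, 55 in HFD + L-NAME 1, 21 in HFD + L-NAME 2 and 245 in the NO2-OA library. Their summed UMIs came to 890053, 648545, 314669, 197112 and 1321032 in the same order, so HFD + L-NAME 2 rested on the fewest cells and UMIs. The median NK cell had 5578, 5960, 5327, 8886 and 4943 UMIs in that order, with the deepest cells in the smallest set. No NK barcode was shared between libraries. Counting the 7 genes per cell, 35 cells had 3 of them, 75 had 4, 170 had 5, 178 had 6 and 108 had all 7. At the threshold, the 35 cells with 3 genes had the NK gene Nkg7 in 82.9% and the T-cell gene Trac in 11.4%. The 20 cells with 2 genes, just outside, had Nkg7 in 75% and Trac in 15%.

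The label was checked against genes that took no part in the choice. After thinning every cell to 2000 UMIs, Nkg7, a membrane protein of cytotoxic granules, had a UMI in 87.5% to 96.2% of NK cells across libraries, in 0% to 0.4% of B cells and in 31.8% to 61.4% of Ccl5+ CD8 T cells. Tyrobp, the DAP12 signalling adaptor of activating receptors, was in 78.5% to 88.7% of NK cells, 3.90% to 8.60% of B cells and 0% to 1.45% of those T cells. Klrd1 (CD94) was in 55.6% to 82.1% of NK cells and 0% to 0.5% of B cells. The rule's own genes are given as a description and are no check of the label. Gzma was in 80% to 94.7% of NK cells and Ncr1 in 31.2% to 53.7%. Ncr1 was in 0 of 1000 B cells in each library, which allows a share of up to 0.3%. Both sets were gated on these genes, since the B cells had fewer than 3 of the 7. All 20 NK markers outside the rule had UMIs in every library, with a summed level of 8504 to 11949 CPM (UMIs of a gene per 1000000 UMIs of the summed cells, with library totals scaled by edgeR's TMM factors, or unscaled where said). Between 1 and 14 NK cells a library were shallower than 2000 UMIs and were left out of the thinned shares.

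Markers of other cells were also present, unevenly. The 8 red-cell genes summed to 6964 CPM in chow 1, 55.9 in chow 2, 32658 in HFD + L-NAME 1, 374.5 in HFD + L-NAME 2 and 18365 in the NO2-OA library. In NK cells haemoglobin RNA was thus high in the libraries numbered 1 and low in those numbered 2. This order was not that of all kept barcodes, where the beta-globin gene Hbb-bs had 5488, 1253, 14088, 28174 and 14841 unscaled CPM in the same order, highest in HFD + L-NAME 2. The 12 B-cell markers, of which the rule holds Cd79a at 0, summed to 476, 197, 138, 133 and 285 CPM in the same order, and the 12 neutrophil markers to 8.00, 6.21, 10.1, 46.2 and 42.8 CPM. Of the 16 T-cell markers, 5 were at 0 in all libraries (Cd3e, Cd3d and Cd8b1 by the rule itself, and Cd4 and Trgc1) and the sum was 458 to 769.6 CPM. The 12 monocyte markers summed to 293 to 643 CPM, mostly Ly6c2 and Ccr2, which NK cells also express. The 6 basophil and mast-cell markers were at 0 in 3 libraries and at no more than 3.10 CPM in the chow libraries.

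The NK share of mononuclear cells was lower in both HFD + L-NAME libraries than in both chow libraries, and highest in the NO2-OA library. NK cells were 0.852% of kept barcodes in chow 1 (95% exact binomial interval 0.720% to 1.00%) and 0.917% in chow 2 (0.745% to 1.12%). They were 0.462% in HFD + L-NAME 1 (0.348% to 0.600%) and 0.273% in HFD + L-NAME 2 (0.169% to 0.417%). The intervals cover counting error only. The difference between HFD + L-NAME and chow was -1.32 in mean log2 share, or 0.402 of the chow share. The exact two-sided permutation test over 2 libraries against 2 gave p = 0.333, the smallest this design allows. Between libraries of the same number the difference was -0.88 for those numbered 1 and -1.75 for those numbered 2. In the NO2-OA library the share was 1.69% (1.49% to 1.91%), above all others, 2.25 higher in log2 than the HFD + L-NAME mean and 0.94 higher than the chow mean. With 1 library this last difference has no replicate check. A share falls when NK cells are fewer or when other cells are more numerous, and the 2 cannot be told apart here.

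**Figure D1:**
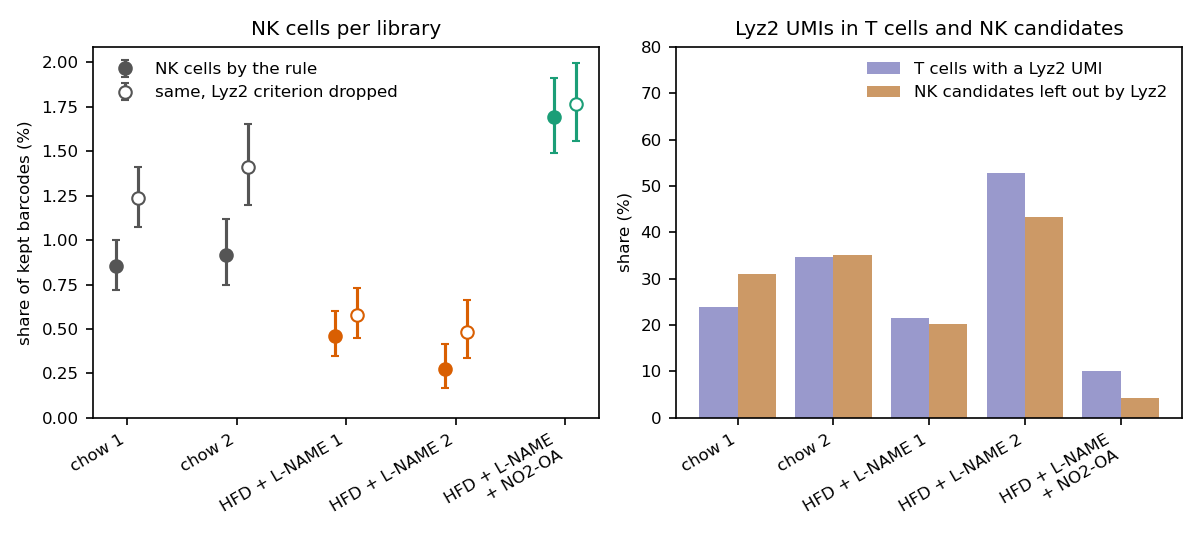
NK cells as a percent of kept barcodes in each library (left, bars are 95% exact binomial intervals), by the rule and with the Lyz2 criterion dropped, and the percent of T cells with a Lyz2 UMI beside the percent of NK candidates left out by Lyz2 (right). The HFD + L-NAME libraries lie lowest, at 0.462% and 0.273%, and the NO2-OA library highest, at 1.69%.

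The requirement that Lyz2, a lysozyme gene of myeloid cells, be at 0 removed candidates to different degrees. It left out 66 cells in chow 1, 53 in chow 2, 14 in HFD + L-NAME 1, 16 in HFD + L-NAME 2 and 11 in the NO2-OA library, with a median of 1 Lyz2 UMI in every library. As a share of candidates these were 31.0%, 35.1%, 20.3%, 43.2% and 4.30%. T cells, which do not make lysozyme, had a Lyz2 UMI in 24.0%, 34.7%, 21.6%, 52.9% and 10.1% of cells, in the same order of libraries from lowest to highest. The cells left out carried Nkg7 in 90.9% to 100% and Klrd1 in 78.6% to 100%, while Csf1r, the monocyte growth factor receptor, was in 0% to 27.3% of them. Scrublet scored 30.3%, 7.55%, 7.14%, 0% and 27.3% of the cells left out as doublets, in the order of libraries above, against 6.12%, 3.06%, 1.82%, 0% and 3.67% of the NK cells. With the criterion dropped, an alternative chosen after seeing the data, the NK shares were 1.23%, 1.41%, 0.579%, 0.481% and 1.77%. The HFD + L-NAME difference was again -1.32, and the NO2-OA library's excess over chow was 0.42 where it had been 0.94.

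Granzyme A was the most abundant of the 7 rule genes in each library. Gzma stood at 3093 CPM in chow 1, 5611 in chow 2, 3859 and 4633 under HFD + L-NAME and 4794 with NO2-OA. Prf1, which encodes perforin, stood at 335 CPM in chow 1, 466 in chow 2, 390.2 and 416 under HFD + L-NAME and 409 with NO2-OA. The activating Ly49 genes were lowest in the NO2-OA library, where Klra8 was at 758 and Klra4 at 517 CPM. Klra8 (Ly49H, the receptor for a cytomegalovirus protein) was at 1089.6 and 1413 CPM in chow and at 1214 and 954 in HFD + L-NAME. Klra4 (Ly49D) was at 781 and 1096 CPM in chow and at 737 and 621 in HFD + L-NAME. Ly49 genes are close paralogs, so reads may be split among them.

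Klre1, a lectin-like receptor of NK cells, went from 679.6 CPM in chow 1 to 1098 in HFD + L-NAME 2, and Klrb1c from 394 in chow 1 to 638 in chow 2. Ncr1 varied most between the chow libraries, at 158, 401, 239, 267 and 257 CPM in the order chow 1, chow 2, HFD + L-NAME 1, HFD + L-NAME 2 and NO2-OA. At a fixed 2000 UMIs it was found in 31.2%, 53.7%, 34.0%, 45% and 43.7% of cells in that order. Chow 1 was lowest for 5 of the 7 genes (Gzma, Prf1, Klre1, Klrb1c and Ncr1), and chow 2 was highest for 6 of them, all but Klre1. For Gzma, Prf1, Klrb1c and Ncr1 the chow libraries were the lowest and the highest of the 5.

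Among the listed genes of NK-cell receptors, killing and cytokines outside the rule, the chemokine Ccl5 was the most abundant, at 5459, 9706, 6772, 7814 and 7525 CPM in the same order. Nkg7 was at 1093 to 1762 CPM, Tyrobp at 929 to 1514 CPM, and Fcer1g, the Fc-receptor gamma chain that couples NKp46 and CD16 to kinases, at 898 to 1298 CPM. Il2rb, the beta chain of the interleukin 2 and 15 receptors, was at 849 to 1126 CPM. Klrk1 (NKG2D), whose promoter is printed above, was at 416, 756, 592, 549 and 453 CPM in that order, lowest in chow 1 and highest in chow 2. The lineage factors Eomes and Tbx21 were at 236 to 399 CPM and 224 to 434 CPM. Irf8, a transcription factor of NK and myeloid cells, was at 659, 422, 928, 503 and 634 CPM, and Gzmb, granzyme B, at 369, 408, 424, 579.8 and 334 CPM. Il7r, which marks helper-type innate cells and T cells, stayed at 19.4 to 33.6 CPM. The gene Itga1 (CD49a of tissue-resident type 1 innate cells) was at 12.6, 6.21, 13.5, 92.4 and 11.5 CPM, with HFD + L-NAME 2 alone above the rest. That value came from 18 UMIs in 3 of 21 cells, 11 of them in 1 cell.

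**Figure D2:**
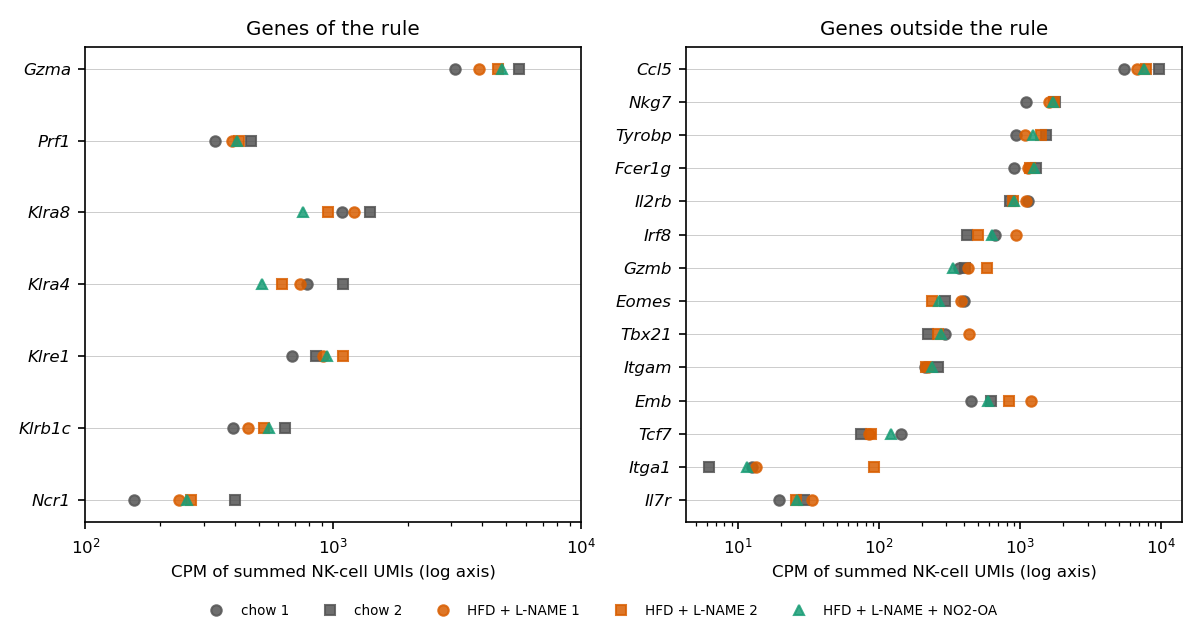
Level of each gene in the summed NK cells of each library, in CPM on a log axis, for the rule genes (left) and genes outside the rule (right), with colour for the group and symbol shape for the library. Gzma and Ccl5 lie highest, and Itga1 in HFD + L-NAME 2 stands apart at 92.4 CPM. The chow and HFD + L-NAME libraries overlap for most genes shown. Klre1, Klra4, Gzmb, Emb and Itga1 are among those that do not, as was the case for 30.3% of all genes tested.

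NK cells also differed from one another within a library. With all cells thinned to 2000 UMIs, the ratio of variance to mean was taken over cells in each library and averaged, and its median over 2573 genes was 1.20. It was 6.66 for Ccl5, 6.53 for the chemokine Ccl4 and 5.96 for Gzma. Next among NK genes came Klra4 at 3.67, Zeb2, a factor of terminal maturation, at 3.30, and Klra8 at 3.13. The long nuclear RNA Malat1 (6.28), the potassium channel gene Kcnq5 (5.23) and the actin-binding Tmsb4x (4.47) were also high. Gzma, Klra4 and Klra8 helped to choose the cells, so their spread is in part set by the rule. The ratio was not adjusted for level. Mean UMIs a thinned cell were 33.3 to 45.2 for Malat1, 17.3 to 22.8 for Tmsb4x and 11.1 to 20.8 for Ccl5. Ccl4 was in 25% to 36.8% of the thinned cells.

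By the classical maturation stages, cells with Itgam and no Cd27 were 34.7%, 36.8%, 39.6%, 25% and 32.0% of thinned cells, in the order chow 1, chow 2, HFD + L-NAME 1, HFD + L-NAME 2 and NO2-OA. Those with Cd27 and no Itgam were 3.47%, 5.26%, 3.77%, 5% and 3.90%. Neither gene had a UMI in 54.7% to 70% of cells, so most cells could not be staged at this depth. A UMI of the proliferation genes Mki67 or Top2a was seen in 5, 8, 0, 1 and 9 cells.

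The remaining 8 Ly49 genes are expressed in a patchy manner, each cell carrying a few of them. Their mean number per cell at 2000 UMIs was 0.882 in chow 1, 1.29 in chow 2, 0.887 in HFD + L-NAME 1, 1.05 in HFD + L-NAME 2 and 1.01 in the NO2-OA library. Cells with none of the 8 were 36.8%, 17.9%, 34.0%, 20% and 29.9% in the same order. Each alternative drew its 2000 UMIs a cell anew. In the draw with doublets left out, HFD + L-NAME 1 had 25% and HFD + L-NAME 2 had 35%, the reverse of the order above. HFD + L-NAME 2 had 0 NK cells scored as doublets, so its change came from the new draw. This share was thus not stable in the 20 thinned cells of HFD + L-NAME 2. HFD + L-NAME was 0.12 genes lower than chow on average, with overlapping libraries and an exact two-sided permutation p of 1.00. The difference turned to 0.086 higher without chow 2. Klra9 was found in 20% to 49.5% of thinned cells, Klra7 in 24.3% to 45%, Klra3 in 13.2% to 32.6% and Klra1 in 0% to 8.66%.

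NK cells were next set beside T cells that carried the same receptors. These were 149 cells with Cd3e or Cd3d and at least 3 of the 7 NK genes, with Cd79a and Lyz2 at 0. Only chow 1, chow 2 and the NO2-OA library had 20 or more of them (40, 20 and 65), so the comparison used 3 libraries with the library as a block. Of 6975 genes tested with edgeR's quasi-likelihood test, 448 were higher in NK cells (6.42%) and 479 lower (6.87%) at an adjusted p under 0.05, 13.3% in all. Without chow 1 the calls came to 528 in all and without the NO2-OA library to 536. Both sets were chosen from the same counts, so the calls describe the chosen cells, and the 12 genes that chose them were left out. CPM was scaled within each fit, which moves a gene's level by a few percent between comparisons.

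The NK cells had more of the innate signalling and killing genes than these T cells. Of 20 NK markers outside the rule, 15 were higher and none lower, with a median log2 difference of 1.17 against -0.01 over all genes. Tyrobp was at 908 to 1514 CPM in NK cells and 185 to 348 CPM in the T cells, a log2 difference of 2.13 ± 0.13 (SE, n = 3 libraries, edgeR adjusted p = 4.3e-08). Klri2, a lectin-like receptor subunit, was higher by 2.48, Itga2 (CD49b, recognised by the DX5 antibody) by 2.14, and Eomes by 1.90 in log2. Of 16 killing granule genes tested, 9 were higher and none lower, median 0.73. Gzmb was at 329 to 408 CPM in NK cells against 70.1 to 92.1 CPM, a log2 difference of 2.10 ± 0.17. Serpinb9, which shields the killer from its own granzyme B, was higher by 1.49.

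Late maturation genes were higher in NK cells for 10 of 13 and lower for none, with a median of 1.40. Irf8 was at 422 to 644 CPM against 52.6 to 161 CPM (log2 difference 2.30 ± 0.16), and Itgam at 205 to 262 CPM against 29.2 to 63.6 CPM (2.29 ± 0.22). Early maturation genes ran the other way, with 7 of 14 lower and 1 higher, median -0.88. Il7r was lower by -4.65 ± 0.16 in log2, the cytokine Ltb by -2.98, the factor Tcf7 by -1.58 and the activation marker Cd69 by -1.47. Of 10 T-cell markers tested, 9 were lower, median -4.20, among them Cd6 (-6.63), Trac (-3.96) and Bcl11b (-4.44), the last a T-lineage factor. Outside the lists, the abundant genes furthest below the T cells included Themis (-5.50), a regulator of T-cell receptor signalling, and Inpp4b (-4.33), a lipid phosphatase. Among activating receptors and adaptors, 9 of 24 were higher and 4 lower. The kinase Syk was higher by 1.86, while the adaptor Lat was lower by -2.25 and Slamf6 by -3.26.

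Against 1193 conventional Ccl5+ CD8 T cells, which had Cd3e or Cd3d, Cd8b1, Ccl5 and fewer than 3 of the NK genes with Cd79a and Lyz2 at 0, all 5 libraries could be used. Of 8247 genes, 1560 were higher in NK cells (18.9%) and 1487 lower (18.0%), 36.9% in all. Both sets were again chosen from the same counts, and the genes that chose them were left out. The limit of fewer than 3 NK genes set the CD8 T cells apart beforehand. Higher NK and killing genes in NK cells were therefore in part set by the choice, and the calls describe the chosen cells. Of 19 NK markers tested, 18 were higher, with a median of 3.53. Tyrobp was at 875 to 1415 CPM in NK cells and 1.48 to 8.92 CPM in the CD8 T cells (log2 difference 8.07 ± 0.20, SE, n = 5 libraries, edgeR adjusted p = 6.36e-16). Irf8 was at 395 to 872 CPM against 4.66 to 10.7 CPM (6.13 ± 0.15). Klrb1b, the inhibitory NKR-P1B receptor, was at 308 to 638 CPM in NK cells, and in the CD8 T cells it was at 0 in 4 libraries and at 1.03 CPM in HFD + L-NAME 1.

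Effector genes set the NK cells apart from these T cells in both directions. Of 18 killing granule genes, 10 were higher and 1 lower, median 0.66. Gzmb was at 312 to 538 CPM against 1.48 to 34.9 CPM (4.51 ± 0.64, edgeR adjusted p = 0.00686), whereas granzyme M, Gzmm, was lower in NK cells by -1.79 ± 0.30. Of 8 secreted cytokines and chemokines, 5 were higher and 2 lower, median 2.13. The chemokines Ccl3 (4.81), Ccl4 (2.67) and Xcl1 (2.53) and the cytokines Ifng (2.10) and Tgfb1 (2.17) were higher in log2, and Ltb (-2.92) and Tnf (-2.22) lower. The receptor subunits of interleukin 12 and interleukin 18 were also higher, Il12rb2 by 2.72 and Il18rap by 2.43. Over the whole list of cytokine receptors and STATs, 12 of 27 were higher and 9 lower.

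Maturation and migration genes also differed from those of the CD8 T cells. Late maturation genes were higher for 12 of 13, median 3.58, among them Itgam (7.71), Klrg1 (4.78), Zeb2 (3.58) and S1pr5 (3.78), the receptor that lets NK cells leave the marrow. S1pr1, the lymphocyte egress receptor, was lower by -2.01, and the lymph-node homing receptor Ccr7 by -4.80. Early maturation genes were lower for 8 of 13 and higher for 3, among them Xcl1 and Cd7, median -0.97. Of 23 NK transcription factors, 11 were higher, including Id2 (2.18) and Eomes (2.26), and 5 lower, including Tcf7 (-2.15) and Lef1 (-1.70). Of 29 interferon-stimulated genes, 13 were lower and 2 higher, median -0.40, with Ifi27l2a lower by -5.32. Of 10 T-cell markers, 8 were lower and 1 higher. That gene, Trdc, the constant part of the delta T-cell receptor chain, was higher than in the CD8 cells by 1.89 ± 0.44 and lower than in the Cd3+ cells with NK genes by -1.58 ± 0.25.

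**Figure D3:**
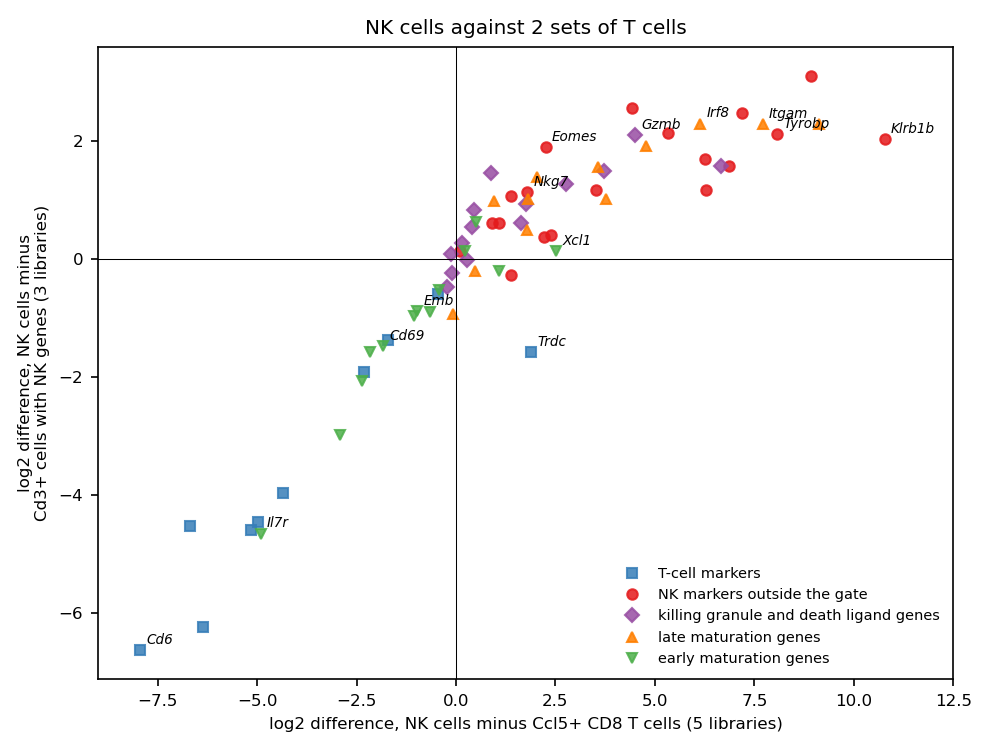
Each point is 1 gene of 5 lists, placed by its log2 difference between NK cells and Ccl5+ CD8 T cells (horizontal, 5 libraries) and between NK cells and Cd3+ cells with NK genes (vertical, 3 libraries). NK, granule and late maturation genes lie to the upper right and T-cell genes to the lower left, with Il7r at -4.91 and -4.65, and Trdc at 1.89 and -1.58, and fitted differences beyond 7 in either direction rest on sums near 0 on 1 side.

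Within NK cells, no gene passed the test between the HFD + L-NAME regimen and chow. Of 8318 genes tested by edgeR on NK-cell sums, 0 were called (0.0%), and 135 higher (1.62%) and 138 lower genes (1.66%) had an unadjusted p under 0.05. DESeq2 also called 0, with 71 genes at an unadjusted p under 0.05. The smallest edgeR adjusted p was 0.362. Leaving out 1 chow or HFD + L-NAME library leaves 1 library in that group, and the spread between libraries then comes from the other group. Calls of such fits are therefore no support for a gene. With 1 library left out edgeR called 25 genes without chow 1, 10 without chow 2, and 8 without each HFD + L-NAME library in turn, and it called 13 with the Lyz2 criterion dropped. Both HFD + L-NAME libraries lay above both chow libraries for 13.8% of genes and below both for 16.4%, 30.3% in all, and the genes below were taken from those. On simulated counts with the same depths, 66 of 100 genes changed by 2 in log2 were recovered and 8 of 100 changed by 1, so smaller changes were mostly not detectable.

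Rgs16, which turns off G-protein signals from chemokine receptors, had the smallest p among the abundant genes. It stood at 219 CPM in chow 1, 60.5 in chow 2, 30.3 and 30.8 under HFD + L-NAME and 97.2 with NO2-OA, a log2 difference of -2.21 ± 0.52 (SE, edgeR, n = 2 against 2 libraries, unadjusted p = 0.000104, adjusted p = 0.362). Both regimen libraries were low and the NO2-OA library lay between the chow libraries. Without chow 2 its log2 difference was -2.83, from 1 chow library against 2 regimen libraries. Rgs16 passed with a gate of at least 2 NK genes and with counts thinned to the smallest library. In CD8 T cells and B cells Rgs16 was scarce, with 5.57, 5.11, 26.3, 3.20 and 16.6 CPM in CD8 T cells, unscaled by TMM, in the order chow 1, chow 2, HFD + L-NAME 1, HFD + L-NAME 2 and NO2-OA.

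Rbm3, a cold-inducible RNA-binding protein, stood at 307 CPM in chow 1, 639.6 in chow 2, 185 and 195 under HFD + L-NAME and 235 with NO2-OA (log2 difference -1.31 ± 0.34, edgeR unadjusted p = 0.000194). Chow 2 was far above the rest. It was also highest in B cells, where the order of libraries above gave 388, 706, 399, 309 and 358 unscaled CPM, and in CD8 T cells, with 319.8, 581, 325, 259 and 269. Fgf13, an intracellular member of the fibroblast growth factor family, stood at 198 CPM in chow 1, 303 in chow 2, 90.8 and 103 under HFD + L-NAME and 230.3 with NO2-OA (-1.37 ± 0.37). Eya1, a transcriptional co-activator with phosphatase activity, stood at 364 CPM in chow 1, 197 in chow 2, 141 and 71.8 under HFD + L-NAME and 167 with NO2-OA (-1.36 ± 0.37). From 1 chow library, the log2 difference was -1.77 for Rbm3 and -1.67 for Fgf13 without chow 1, and -1.71 for Eya1 without chow 2. None of these passed in the fit of all 5 libraries without a block.

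Other genes low in both regimen libraries were the tubulin Tubb5 (-1.09), the transcription factor subunit Taf4b (-1.30), the importin Ipo11 (-1.27), the ribosome assembly factor Wdr43 (-1.21), Dmxl1 (-0.97), Abtb2 (-0.97) and Wwox (-0.87), all differences in log2 that missed the threshold. Without chow 1, from 1 chow library, the log2 difference of Tubb5 was -1.57. Cd74, the invariant chain of MHC class II made mainly by B and other antigen-presenting cells, stood at 104 CPM in chow 1, 41.9 in chow 2, 23.5 and 30.8 under HFD + L-NAME and 82.6 with NO2-OA (-1.47 ± 0.52). Of the 10 other B-cell markers outside the rule, 4 could be tested and all 4 were also below 0, median -1.07. The part of B-cell RNA in this difference was not tested.

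On the higher side, Gpx1, the cytosolic glutathione peroxidase, stood at 46.8 CPM in chow 1, 37.3 in chow 2, 161 and 71.8 under HFD + L-NAME and 84.9 with NO2-OA, a log2 difference of 1.50 ± 0.42 (edgeR unadjusted p = 0.000436, adjusted p = 0.362). Both regimen libraries were above chow, HFD + L-NAME 1 by far the most. Gpx1 is abundant in red cells, and haemoglobin RNA of NK cells was also highest in HFD + L-NAME 1, and the part of red-cell RNA in this difference was not tested. Emb, embigin, a partner of lactate transporters and an early maturation gene, stood at 444 CPM in chow 1, 624 in chow 2, 1188 and 836 under HFD + L-NAME and 586 with NO2-OA (0.93 ± 0.33, unadjusted p = 0.00502 by edgeR). In CD8 T cells Emb was at 904 in chow 1, 1051 in chow 2, 1344 and 1331 under HFD + L-NAME and 1140.0 with NO2-OA, in unscaled CPM, also higher in both regimen libraries. Klrb1b, which dampens NK cells on meeting its ligand Clr-b, stood at 327 CPM in chow 1, 415 in chow 2, 679.5 and 636 under HFD + L-NAME and 513 with NO2-OA (0.83 ± 0.32), with the 2 regimen libraries close together.

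Cd7, a surface protein of T and NK cells, stood at 54.8 CPM in chow 1, 110.2 in chow 2, 111 and 262 under HFD + L-NAME and 123 with NO2-OA (1.15 ± 0.39). Here chow 2 and HFD + L-NAME 1 were nearly equal, and HFD + L-NAME 2 alone was high. Ptprj, the receptor phosphatase CD148, stood at 149.6 CPM in chow 1, 55.9 in chow 2, 168 and 267 under HFD + L-NAME and 154 with NO2-OA (1.04 ± 0.37), with chow 1 close to HFD + L-NAME 1. Rab43, a small GTPase of vesicle transport, stood at 77.7 CPM in chow 1, 82.3 in chow 2, 165 and 159 under HFD + L-NAME and 99.5 with NO2-OA (1.02 ± 0.37), and the polyphosphate hydrolase Nudt4 at 119 CPM in chow 1, 101 in chow 2, 222 and 231 under HFD + L-NAME and 125 with NO2-OA (1.04 ± 0.35). For both, the regimen libraries were near each other and the NO2-OA library was nearer to chow. The semaphorin receptor Plxnc1 (1.27), Gramd3 (1.03), Tex14 (1.13), Frg1 (0.95) and the coenzyme Q enzyme Pdss2 (1.09) made up the rest of the 12 higher genes. From 1 chow library, the log2 difference was 1.72 for Cd7 without chow 2 and 1.92 for Ptprj without chow 1. Neither passed with all libraries.

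**Figure D4:**
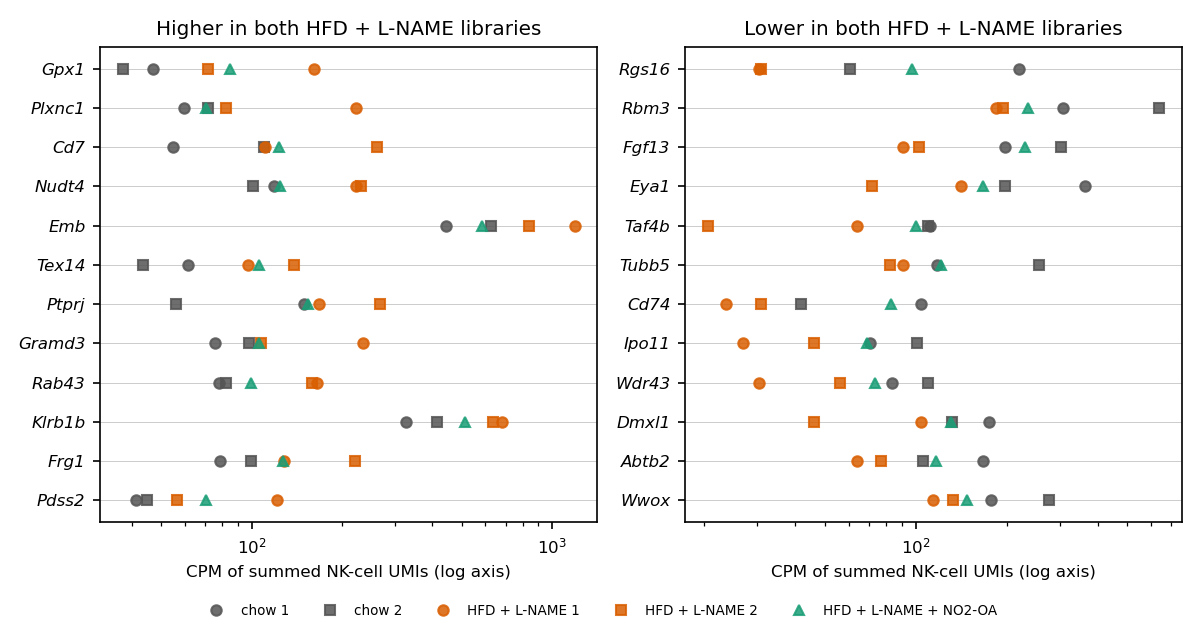
CPM on a log axis of the 12 higher (left) and 12 lower (right) genes between HFD + L-NAME and chow that had the smallest p among abundant genes whose 4 libraries do not overlap. None passed the adjusted threshold. The overlap was judged without the NO2-OA library, but the p-values came from the fit of all 5 libraries, which includes it. Its position is therefore a description and no separate check.

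The lists of NK function centred near 0 between HFD + L-NAME and chow, where 49.0% of all genes were above 0 and the median was -0.01. Without the genes of the rule, above 0 were 12 of 20 NK markers (median 0.03), 13 of 18 killing granule genes (0.19), 11 of 23 activating receptors and adaptors (-0.03), and 11 of 18 inhibitory receptors and phosphatases (0.03). The same held for 15 of 25 cytokine receptors and STATs (0.05), 4 of 8 cytokines and chemokines (-0.01), 9 of 22 transcription factors (-0.07) and 13 of 23 trafficking genes (0.09). Interferon-stimulated genes were above 0 for 17 of 29 (0.13) and immediate-early genes for 14 of 21 (0.10). Fos, a subunit of the AP-1 factor, stood at 689 CPM in chow 1, 691 in chow 2, 1278 and 806 under HFD + L-NAME and 515 with NO2-OA (0.60 ± 0.32, edgeR unadjusted p = 0.066).

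Metabolic and stress lists also gave no called gene. Lipid genes were above 0 for 9 of 15 (median 0.21), mTOR and glycolysis genes for 12 of 23 (0.03), NRF2 targets for 5 of 13 (-0.36) and clock genes for 3 of 9 (-0.15). NRF2 is the factor of the antioxidant response that nitro-fatty acids are known to activate. Its most abundant target here, the ferritin gene Fth1, stood at 1094 CPM in chow 1, 1089.8 in chow 2, 1211 and 811 under HFD + L-NAME and 865 with NO2-OA. Proliferation genes were above 0 for 2 of 12, median -0.70. Mki67, Pclaf, Birc5 and Nusap1 met the filter on low counts only in chow 2, so their direction was set in part by the filter. Mki67 stood at 77.6 CPM in chow 2 and 0 to 10.3 CPM elsewhere, and Pclaf at 52.8 against 0 to 0.77 CPM. The count and median thus rest in good part on 1 library. Top2a, a topoisomerase of dividing cells, stood at 14.8 CPM in chow 1, 83.8 in chow 2, 3.36 and 15.4 under HFD + L-NAME and 19.9 with NO2-OA (-2.50 ± 0.86), and passed without chow 1 (edgeR adjusted p = 0.00554). Chow 2 alone was high for it.

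Heat-shock chaperones separated chow 2 from every other library. Hspa1b, an inducible HSP70 gene, had 1992, 1.54, 677, 1015 and 409.5 unscaled CPM in NK cells, in the order chow 1, chow 2, HFD + L-NAME 1, HFD + L-NAME 2 and NO2-OA. B cells of the same libraries had 3415, 4.24, 1261, 1183 and 339.9, and CD8 T cells 582, 1.10, 248, 213 and 153. Hsp90aa1 was likewise lowest in chow 2, with 1919, 313, 1150.5, 761 and 941 in NK cells. Between groups, 5 of 12 chaperones were above 0 (median -0.11).

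The balance of late to early maturation genes was lower in both HFD + L-NAME libraries than in both chow libraries. The log2 ratio of summed late to summed early maturation genes was 0.091 in chow 1, 0.175 in chow 2, -0.097 in HFD + L-NAME 1, -0.171 in HFD + L-NAME 2 and 0.376 in the NO2-OA library. The mean difference from chow was -0.27 (exact two-sided permutation p = 0.333, the smallest possible). The summed late genes were 2999, 3334, 3394, 3191 and 3026 CPM and the summed early genes 2814, 2953, 3629, 3592 and 2332 CPM, so the early sum carried the difference. The difference shrank to -0.11 with a gate of at least 4 NK genes, to -0.15 with the Lyz2 criterion dropped and to -0.10 as a mean of log2(CPM + 1) over genes. In the last of these and with the Lyz2 criterion dropped the groups overlapped (exact permutation p = 0.667 for each), and HFD + L-NAME 1 was above chow 1 by 0.101 and 0.135. Among early genes 8 of 14 were above 0 (median 0.17), and among late genes 6 of 13 (-0.04). Emb, whose levels are given above, was the early gene with the largest difference in mean CPM.

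Of 12 genes of type 1 innate lymphoid cells, 6 could be tested and all 6 were above 0, median 1.12. The filter on low counts could be met in 1 library, and Itga1 and Cxcr6 met it only in HFD + L-NAME 2. Cxcr6 stood at 30.8 CPM there and at 0 to 6.12 CPM in the other libraries. The direction of these genes was thus set in part by the filter, and the count and median show no shift of the list. Itga1, described above, had a log2 difference of 2.32 ± 0.69 (edgeR unadjusted p = 0.00112), which rested on HFD + L-NAME 2. Without HFD + L-NAME 1 the difference was 3.22, from 1 regimen library. Rora and Inpp4b, also on the list, stood at 177, 166, 289, 108 and 217 CPM and 59.4, 23.3, 26.9, 103 and 36.0 CPM in the order chow 1, chow 2, HFD + L-NAME 1, HFD + L-NAME 2 and NO2-OA, each with 1 regimen library above chow and the other within or below its range.

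The NO2-OA library differed from HFD + L-NAME in platelet transcripts. This comparison and the one with chow use the same 2 HFD + L-NAME libraries, so their values are given side by side and not as separate support. Of 8318 genes, 6 were called lower (0.0721%) and 0 higher, with 102 lower (1.23%) and 80 higher (0.962%) at an unadjusted p under 0.05. DESeq2 called 3 (0.0361%), and edgeR without chow 1 also 3. The NO2-OA library lay outside both HFD + L-NAME libraries for 55.0% of genes. It is 1 library, and its spread was assumed equal to that of the other groups. On simulated counts, 40 of 100 genes changed by 2 in log2 were recovered and 5 of 100 changed by 1.

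Pf4, platelet factor 4, had 183 in chow 1, 162 in chow 2, 184 and 142 under HFD + L-NAME and 10.6 with NO2-OA, in unscaled CPM of NK cells (log2 difference -3.97 ± 0.55, edgeR adjusted p = 1e-07). Gng11, a G-protein subunit abundant in platelets, had 222 in chow 1, 156 in chow 2, 235 and 122 under HFD + L-NAME and 9.84 with NO2-OA (-4.23 ± 0.56, edgeR adjusted p = 4.91e-08). Nrgn, neurogranin, also a platelet transcript, had 245 in chow 1, 174 in chow 2, 172 and 213 under HFD + L-NAME and 22.7 with NO2-OA (-3.10 ± 0.50, edgeR adjusted p = 1.69e-05). Each was low in the NO2-OA library alone, and the 4 other libraries overlapped. Gp9, a subunit of the platelet receptor for von Willebrand factor, had 1 UMI in the NO2-OA NK cells and 14 in those of HFD + L-NAME, a ratio of 0.0277 per UMI sequenced (95% exact interval 0.000654 to 0.182). Myl9, a myosin light chain, had 2 against 16, a ratio of 0.0484 (0.0054 to 0.206). Both intervals cover counting error only, with the 2 HFD + L-NAME libraries summed, and not the spread between libraries. The sixth called gene was a gene model, Gm6634. Gp9 and Myl9 lost their calls with DESeq2, with no filter on low counts and with the mitochondrial share below 5%. The same held with only the libraries compared and without chow 1. Gp9 also lost its call with doublets left out and without HFD + L-NAME 1. Myl9 lost its call with counts thinned to the smallest library, with the Lyz2 criterion dropped and without HFD + L-NAME 2.

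Pf4 was lowest in the NO2-OA library in other cell sets too. In B cells Pf4 had 404 in chow 1, 209.8 in chow 2, 309 and 204 under HFD + L-NAME and 31.5 with NO2-OA, in unscaled CPM, and in CD8 T cells 125 in chow 1, 69.8 in chow 2, 91.4 and 46.4 under HFD + L-NAME and 9.26 with NO2-OA. In those CD8 T cells edgeR called 0 of 11252 genes (0.0%) between the NO2-OA library and HFD + L-NAME, with 142 at an unadjusted p under 0.05, so the lower level there did not pass. Over all kept barcodes, which include platelets, it had 1082 in chow 1, 386 in chow 2, 933 and 1166 under HFD + L-NAME and 72.9 with NO2-OA. In NK cells the 10 platelet markers summed to 488, 321, 370, 251 and 30.6 CPM in the order chow 1, chow 2, HFD + L-NAME 1, HFD + L-NAME 2 and NO2-OA. Pf4 had a UMI in 57.8%, 45.9%, 43.6%, 42.9% and 5.31% of NK cells. Whether platelets on NK cells or free RNA gave these UMIs was not tested.

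**Figure D5:**
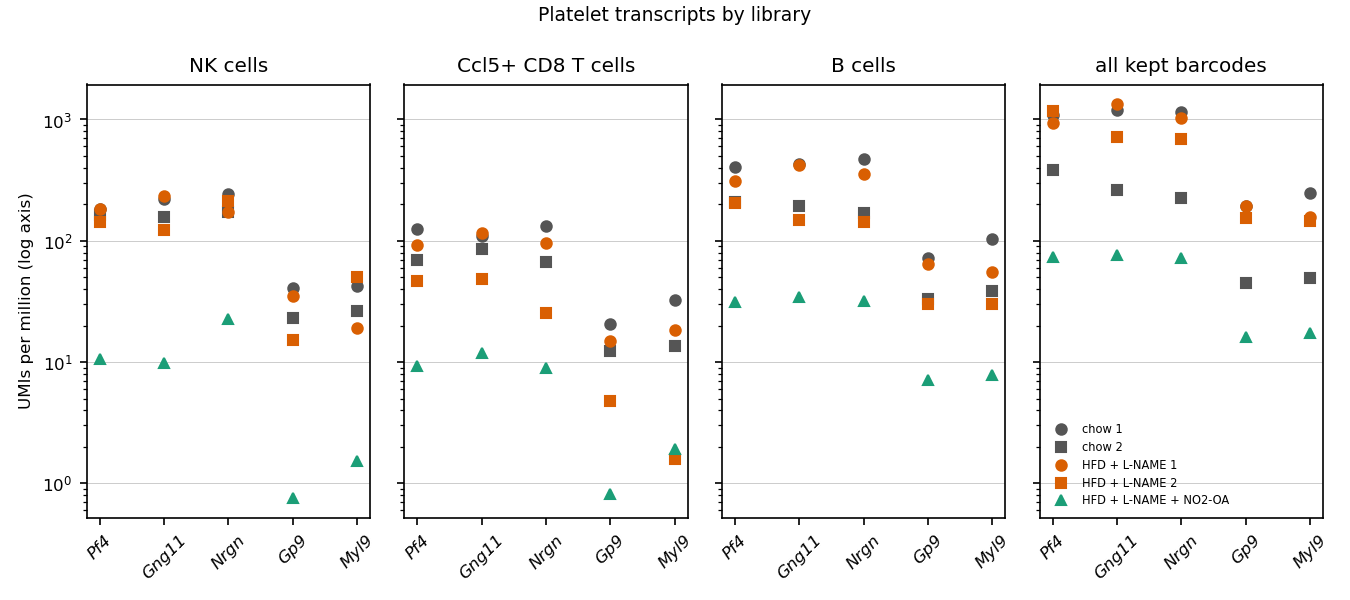
Unscaled CPM, on a log axis, of 5 platelet transcripts in NK cells, Ccl5+ CD8 T cells, B cells and all kept barcodes of each library. The NO2-OA library lies lowest in NK cells, B cells and all kept barcodes, and in CD8 T cells for all but Myl9, which was also near its level in HFD + L-NAME 2.

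Apart from the 6 called genes, none passed between the NO2-OA library and HFD + L-NAME. The nearest, chosen after its values were seen, was Plcb1, a phospholipase C, with 0, 1, 1, 0 and 71 UMIs in the order chow 1, chow 2, HFD + L-NAME 1, HFD + L-NAME 2 and NO2-OA (edgeR adjusted p = 0.0556), and 68 of the 71 were in 1 cell of 245. Below HFD + L-NAME without passing were Rab27b, a GTPase of granule transport in NK cells and platelets (-1.72 in log2, edgeR adjusted p = 0.451), Tsc22d1 (-1.61), Stmp1 (-1.45) and the integrin Itga6 (-1.57). Ctla2a, a cysteine protease inhibitor, had the smallest p among the listed NK genes, at 1181 CPM in chow 1, 979.6 in chow 2, 1399 and 1072 under HFD + L-NAME and 532 with NO2-OA (log2 difference -1.22 ± 0.41, edgeR unadjusted p = 0.00381). The NO2-OA library was below all others for it. Stx11, a syntaxin needed for granule release, stood at 97.1 CPM in chow 1, 63.7 in chow 2, 37.0 and 35.9 under HFD + L-NAME and 79.6 with NO2-OA (1.12 ± 0.53), with both HFD + L-NAME libraries lowest. Rgs16 (1.67), Fgf13 (1.26), Taf4b (1.15) and Cd74 (1.63) were above HFD + L-NAME in log2, the genes that had been below chow in the same 2 libraries. Fos, at 515 CPM, was the lowest of the 5 libraries (-1.02 ± 0.41). None of these passed with all libraries, the full rule and no block. With the Lyz2 criterion dropped Tsc22d1 (edgeR adjusted p = 0.0371) and Stmp1 (0.0167) passed, and Fgf13 changed sign to -0.66 with equal numbers of cells per library.

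By list, early maturation genes were above 0 for 2 of 14 in the NO2-OA library against HFD + L-NAME (median -0.35), and late genes for 6 of 13 (-0.05), beside a median of -0.02 and 48.1% of all genes above 0. Immediate-early genes were above 0 for 5 of 21 (-0.31), heat-shock chaperones for 1 of 12 (-0.31) and interferon-stimulated genes for 9 of 29 (-0.23). NRF2 targets were above 0 for 7 of 13 (0.05), and killing granule genes outside the rule for 7 of 18 (-0.15). The 5 platelet markers tested were all below 0, with a median of -3.33 and 2 called (Pf4 and Gp9). In the NO2-OA library these 5 (Pf4, Ppbp, Clec1b, Itga2b and Gp9) stood at 0.77 to 10.7 CPM. They did not meet the filter on low counts there and were tested through the other libraries. Their shared direction was thus set in part by the filter.

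Whether the regimen's differences were particular to NK cells was tested against the CD8 T cells of the same libraries. The interaction of cell set and group passed for 0 of 8178 genes (0.0%) with edgeR, with 512 at an unadjusted p under 0.05. DESeq2 also gave 0, with 119 at an unadjusted p under 0.05. The smallest adjusted p was 0.0572, for Fhit, a gene of nucleotide metabolism. For Rgs16 the edgeR unadjusted p of the interaction was 0.000106, for Rbm3 0.0101 and for Emb 0.0594. Leaving out a library changed this count to 2 without chow 2, 45 without HFD + L-NAME 1 and 64 without HFD + L-NAME 2. These fits each left 1 library in a group, so their calls are no support for a gene. With all 4 libraries, no change under HFD + L-NAME was called particular to NK cells.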

How the data were processed

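The authors deposited 1 matrix of UMI counts per gene and barcode for each of 5 libraries, written by Cell Ranger 7.1.0 per the matrix headers. The submitters' processing notes name bcl2fastq, Cell Ranger and the mm39 genome. Nothing in the deposited counts was normalized or rescaled. NK cells, both T-cell sets and all gene lists were chosen with earlier results of these data known.

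Raw counts were summed over the cells of a set in each library. Groups were compared with edgeR 4.0.16 (R 4.3.3): TMM scaling, filterByExpr, a robust quasi-likelihood fit over all 5 libraries without a block, and Benjamini-Hochberg adjustment at 0.05. DESeq2 1.42.0 was the alternative. Cell sets were compared with the library as a block where both sets had at least 20 cells. Single values were compared by exact permutation over libraries. Thinned values used 2000 UMIs a cell. No doublets were removed by the rule. Scrublet scores served an alternative that left out the highest-scored barcodes. The share left out grew by 0.8% with every 1000 barcodes of the library and was 6.79% to 14.4%. The fits were tested on simulated counts.

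Genes named in the text were the 12 higher and 12 lower with the smallest p among those with a mean of at least 6 log2 CPM whose compared libraries do not overlap (for cell sets, the 8 with the largest change each way at 7 or more), and members of the lists described, either past the threshold or most abundant. Genes without a symbol, receptor and immunoglobulin segments, mitochondrial, ribosomal and Y-linked genes and pseudogenes were passed over. Gm6634, Fhit, Fos, Top2a, Itga1, Hspa1b, Hsp90aa1, Trdc, Plcb1 and the platelet genes Gp9 and Myl9 were added where a count or a list turned on them. Promoters and motifs came from RefSeq, build GRCm38.p6, so no coordinates of the files' build were used. One member of the early maturation list is not reported here by name and is included in that list's counts.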

Additional observations from a re-analysis of the deposited data

How the results depend on the processing

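The lower NK share under HFD + L-NAME kept its direction in every alternative run, between -1.04 as a share of lymphocytes and -1.51 with the mitochondrial share below 5%. Leaving out 1 library gave -1.69 to -0.94, and the difference in mean maturation ratio stayed below 0 in its alternatives, although HFD + L-NAME 1 was above chow 1 by 0.101 as a mean of log2 values and by 0.135 with the Lyz2 criterion dropped. For HFD + L-NAME against chow, edgeR called 3 genes with at least 2 of 7 NK genes, 1 with counts thinned to the smallest library, 2 with no filter on low counts and 13 with the Lyz2 criterion dropped, and 0 to 25 with 1 library left out. For the NO2-OA library against HFD + L-NAME, 3 were called by DESeq2, with thinned counts, with the mitochondrial share below 5% and with only the libraries compared. The count was 1 with equal numbers of cells, 22 with the Lyz2 criterion dropped and 3 to 8 with 1 library left out. Gng11, Pf4 and Nrgn missed the threshold with equal numbers of cells, when every set had 21 cells (adjusted p 0.0926 to 0.0953), and Fgf13 turned to -0.66.

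Against the Cd3+ cells with NK genes, 494 genes were called by DESeq2, 398 with each cell thinned and 528 to 1218 with 1 library left out. Against the CD8 T cells, 1631 were called with each cell thinned and 2309 to 3265 with 1 library left out. The interaction gave 1 call with DESeq2 size factors, 12 with no filter and 0 to 64 with 1 library left out. The Ly49 difference turned to 0.00325 with all UMIs and to 0.00485 among replicate 1 alone. With at least 4 of 7 NK genes, where the UMIs were also drawn anew, it was 0.0003. It ran from -0.33 to 0.086 with 1 library left out. Apart from thinned counts and left-out cells or libraries, which change what is measured by construction, the causes were not tested.

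The labels do not say whether libraries of the same number were prepared together. The deviations of same-numbered NK sums from their group means had a correlation of 0.098, which is near 0. For differently numbered libraries it was -0.098, the same value with its sign turned, since each group had 2 libraries. With the replicate block the calls came to 16 for HFD + L-NAME against chow, with Rgs16, Rbm3, Fgf13 and Eya1 (adjusted p 0.0012 to 0.0426), and to 14 for the NO2-OA library against HFD + L-NAME, with Tsc22d1, Stmp1 and Nbea (0.0198 to 0.043). The 21 to 245 NK cells of a library limit the precision.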
